A study of Mus musculus with 3 samples.

Results

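The comparison described here set the hippocampus of restrained mice that received vesicles from exercised donors against the hippocampus of unrestrained mice that received vehicle. The genes were all those named in the array annotation, with 1 probe set per gene, taken as the one with the highest mean over the 3 arrays. That gave 19504 genes from 19571 named probe sets of 22205 in the table. Gene families were described among the 11788 genes whose log2 signal was above 6 in at least 1 of the 2 pools compared. All mice were male C57BL/6J mice of 11 weeks. NV mice were not restrained and received the phosphate-buffered saline vehicle, and RNA of 3 mice was pooled. RE mice were restrained for 6 h per day over 3 weeks, then received 20 μg of extracellular vesicles (EVs) from the serum of donors that had a running wheel for 4 weeks, and RNA of 4 mice was pooled. A further pool of 4 mice, RS, had the same restraint and 20 μg of EVs from sedentary donors, and its values are given beside the other 2. Injections went into the lateral ventricle and the tissue was collected 3 days later. The title of the NV pool speaks of a vesicle, whereas its treatment note and the study's methods give vehicle, which was followed here. The descriptions of the pools name ventral hippocampus, whereas the tissue labels and the methods name hippocampus.

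For each pool 1 Affymetrix array was run, so there was no replicate array, no test was possible and no p-value is given. RE differed from NV in restraint and in the injected material, and these cannot be told apart. In bulk tissue, fewer cells of a type and less RNA per cell cannot be told apart either. RS and RE were both set against the same NV array, so a chance deviation of that array enters both differences.

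EVs are membrane-bound particles that cells shed into body fluids and that carry proteins and RNA. Repeated restraint is a common model of chronic stress in rodents, in which glucocorticoids released from the adrenal gland act on the hippocampus through the mineralocorticoid and glucocorticoid receptors. The hippocampus is built from the granule cells of the dentate gyrus and the pyramidal neurons of the CA fields, and its ventral end is the part most linked to anxiety.

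A gene is called higher or lower when RE and NV differed by 2-fold or more, which is a log2 difference of at least 1, the threshold in the study's methods. Of the 11788 genes, 465 were higher in RE (3.94%) and 514 were lower (4.36%). These shares are the background against which each group of genes below is read. The median difference of the 11788 genes was 0.01 on the log2 scale, and the SD over genes was 0.58. Rises were smaller than falls at the extremes. A 4-fold difference was reached by 26 genes upward and by 52 downward, and an 8-fold difference by 0 upward and by 6 downward.

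**Figure D1:**
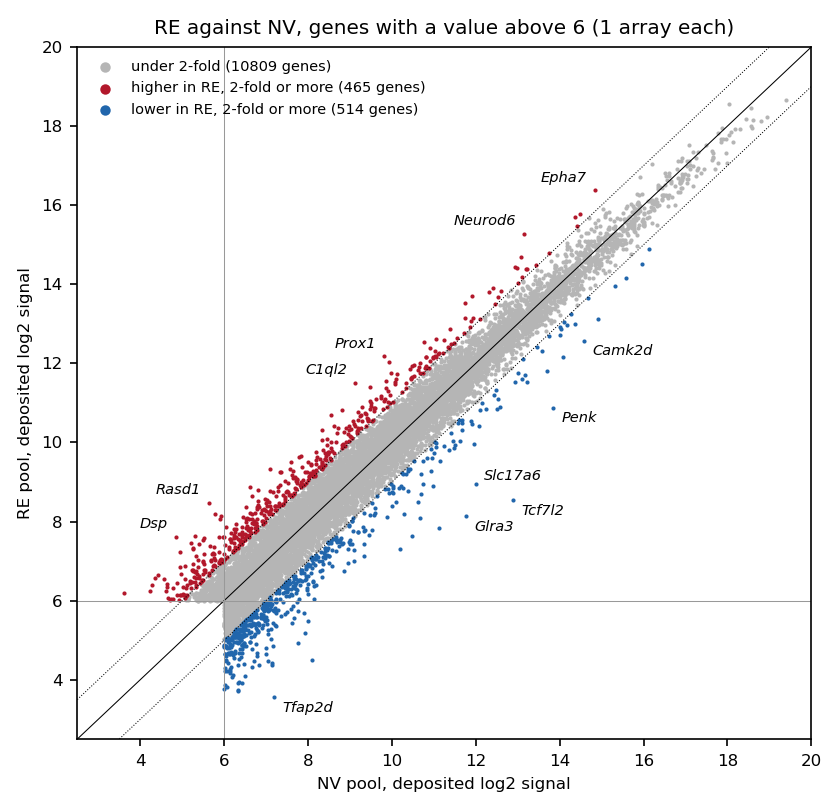
Deposited log2 signal of each of 11788 genes in the RE pool (vertical axis) against the NV pool (horizontal axis), with 1 array per pool. Red points are the 465 genes higher in RE and blue points the 514 genes lower in RE by 2-fold or more; the dotted lines mark 2-fold, the grey lines a signal of 6, and Tcf7l2 and Glra3 lie farthest below the diagonal among genes above 6 in both pools.

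The size of a difference was less certain where 1 of the 2 values was at or below 6. Among the genes called higher, 362 had both values above 6 and 103 did not. Among those called lower, 254 had both above 6 and 260 did not. With values below 6 set to 6, 393 rises and 306 falls were still 2-fold. Genes that the hippocampus is not known to use gave a view of the low end. The 1453 olfactory, vomeronasal, taste and trace amine receptor genes had a median log2 signal of 4.52 in NV against 4.34 in RS and 4.24 in RE, so the low end of the RE array lay below that of the NV array. The level of 6 cut through a dense range of values: the higher of the 2 values lay between 6 and 6.1 for 239 genes that were kept and between 5.9 and 6 for 265 that were not, with Ism1 at 6.0001 just inside and Uts2b at 5.9996 just outside.

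The share of genes called also moved with the signal. Where the mean of both values was at or below 6, 25.8% of 600 genes were lower and 7.67% were higher. Between 8 and 10, 2.38% of 3104 genes were lower and 4.22% were higher. Above 14, 0.974% of 616 genes were called in each direction. A member of a group that passed the level of 6 only through the pool in which it was high had to differ, so the counts below are descriptions.

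**Figure D2:**
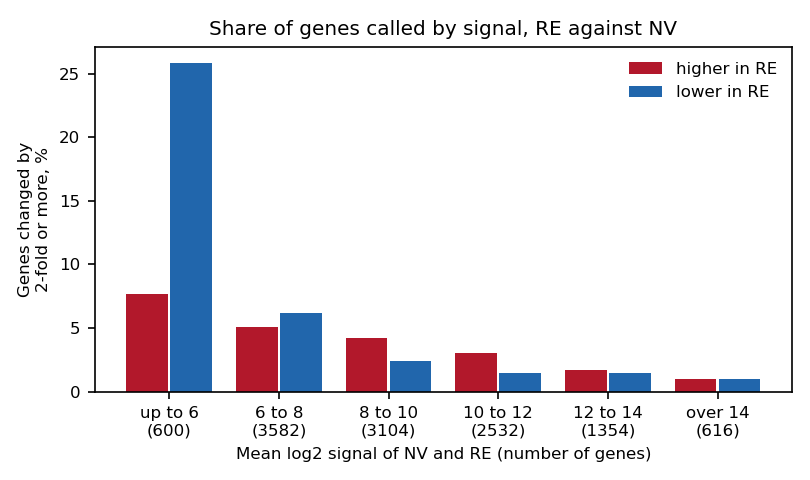
Percent of genes higher (red) or lower (blue) in RE than in NV by 2-fold or more (vertical axis), by the mean log2 signal of both pools (horizontal axis, number of genes in brackets). The share lower was 25.8% in the lowest class against 7.67% higher, and both shares were 0.974% above 14.

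The largest rise was that of Rasd1, a Ras-like GTPase induced by glucocorticoids. Its log2 signal was 5.63 in NV, with 8.26 in RS and 8.48 in RE, which made RE 2.84 higher than NV. Dsp, a desmosome protein that marks dentate granule cells in the mouse brain, stood at 4.85 in NV against 8.42 in RS and 7.62 in RE, or 2.77 above NV. C1ql2, a secreted synaptic organizer of mossy fibers, rose from 9.13 in NV to 11.51 in RE, with 11.80 in RS. Prox1, the transcription factor that sets granule cell identity, rose from 9.82 to 12.19, with 12.52 in RS. Both are granule cell genes with all 3 values well above 6. Spink8, a protease inhibitor gene used in CA1, went from 7.09 in NV to 9.34 in RE, a difference of 2.25. Tanc1, a postsynaptic scaffold protein, went from 6.62 to 8.86. Ttr, which encodes the thyroxine carrier of the choroid plexus, went from 5.78 to 8.20, with 7.85 in RS. Of the 15 largest rises, 11 had an NV value at or below 6. They included Depdc7, at 3.62 in NV and 6.19 in RE, whose difference of 2.57 shrank to 0.19 with values below 6 set to 6. The others among the 15 were H2bc11, Zfp78, Cemip, Rasl11a, Tdo2, Pxdc1 and Akap13, with differences from 2.18 to 2.33.

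The largest fall was that of Tcf7l2, a transcription factor of Wnt signaling that is strongly used in thalamic neurons. Its signal was 12.89 in NV, with 8.21 in RS and 8.54 in RE, a 20.4-fold difference between NV and RE. Glra3, a glycine receptor subunit, stood at 11.77 in NV against 7.66 in RS and 8.14 in RE. Slc17a6, the vesicular glutamate transporter of subcortical neurons, stood at 12.00, 8.70 and 8.95. In each of these genes NV was the high pool and RS and RE lay close together. Penk, the precursor of enkephalins, fell from 13.85 in NV to 10.88 in RE, with 11.36 in RS. Vat1l fell from 11.12 to 7.84, and Rgs6, which speeds the shut-off of inhibitory G proteins, fell from 10.68 to 8.10. Unc13c, a priming factor of synaptic vesicles, fell from 10.48 to 7.63. Of the 15 largest falls, 8 had an RE value at or below 6. Tfap2d, a transcription factor of the dorsal midbrain, was at 7.19 in NV and 3.56 in RE, and its difference of -3.63 became -1.19 with values below 6 set to 6. The other genes of that kind were Mab21l1, Tfap2b, Dgkk, Foxp2, Glra1, Irx2 and Pou4f1, with differences from -3.60 to -2.57.

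**Figure D3:**
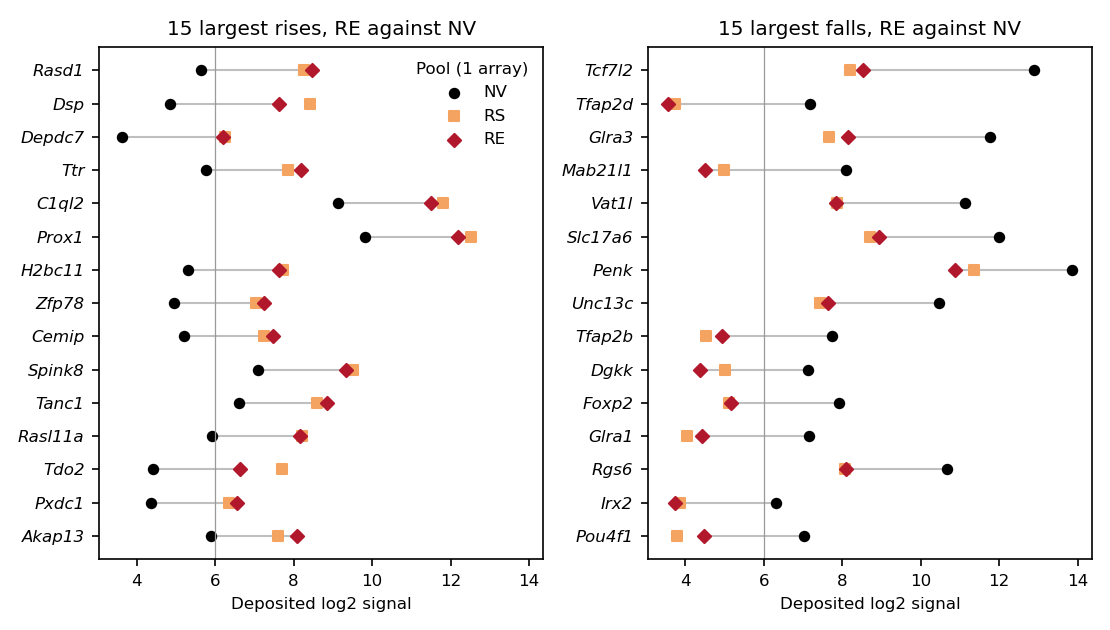
Deposited log2 signal (horizontal axis) of the 15 largest rises (left) and 15 largest falls (right) in RE against NV, with a black circle for NV, an orange square for RS, a red diamond for RE and a vertical line at 6. NV was at or below 6 for 11 of the rises, and RE was at or below 6 for 8 of the falls.

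The pools were checked against tissue markers. Of 10 hippocampal markers 9 had a named probe set, all 9 were above 6 in at least 1 pool, 3 were higher in RE and 0 were lower. Camk2a, the kinase of excitatory neurons, was at 18.45 in NV and 18.17 in RE. Grik4, a kainate receptor subunit of CA3, was at 9.98 and 10.15, and Wfs1, a CA1 marker, was at 10.75 and 10.43. All 3 pools thus carried hippocampal genes. Of 6 thalamic and habenular markers, 3 were above 6 and all 3 were lower in RE (Tcf7l2, Slc17a6 and Pou4f1), whereas Gbx2, Lef1 and Gpr151 were below 6 in all 3 pools. The log2 of the summed signal of those 6 markers was 13.54 in NV, with 9.63 in RS and 9.91 in RE. For 4 striatal markers it was 10.12 in NV and 8.97 in RE, for 5 neocortical markers 13.44 and 13.47, and for 6 choroid plexus markers 8.63 and 9.53. The hemoglobin genes are not analysed here, and the remaining blood marker, Alas2, was below 6 in all 3 pools. The part of these markers in the results below was not tested.

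Dentate granule cell genes were higher in RE. All 18 listed genes were above 6 in at least 1 pool, 10 were higher and 0 were lower, against 3.94% and 4.36% of all genes, and their median difference was 1.17 against 0.01. Among the 15 members with both values above 6, 7 were higher and the median was 0.89. Beside Dsp, C1ql2, Prox1 and Tdo2, the largest differences were those of Sema5a, a guidance molecule that stood at 8.55 in NV and 10.70 in RE, and Lct, which stood at 5.25 and 7.33. Bdnf, a neurotrophin abundant in granule cells, was at 10.65 in NV against 12.36 in RS and 11.91 in RE. The members with the highest signal did not reach 2-fold. C1ql3 was at 13.80 in NV and 14.59 in RE, Rfx3 was at 13.23 and 13.96, and Calb1, the calcium buffer of mature granule cells, was at 13.00 and 12.75. The dentate group thus rose mainly through its members of lower and middle signal.

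In the CA fields the groups differed. Of 14 genes listed for CA1 pyramidal neurons, 12 were measured and 11 were above 6, of which 5 were higher and 0 lower, at a median difference of 0.99. Neurod6, a helix-loop-helix factor of excitatory neurons, stood at 13.16 in NV, with 15.61 in RS and 15.28 in RE. Itpka, an inositol trisphosphate kinase of dendritic spines, stood at 10.49, 11.75 and 11.65. Man1a, an enzyme that trims N-glycans, and Gpr161, a receptor of the primary cilium, rose by 1.09 and 1.06. Mpped1 was at 12.53 in NV and 12.52 in RE. Of 18 genes listed for CA2 and CA3, 17 were measured and 15 were above 6. Of these, 0 were higher and 0 lower, and the median was 0.22. Pcp4, a calmodulin-binding protein of CA2, was at 14.37 in NV and 13.76 in RE, and Cpne4 was at 12.18 and 12.47.

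Genes that mark the ventral hippocampus went the other way. All 16 were above 6, 7 were lower and 0 were higher, and the median difference was -0.92. The list includes Trhr, Tacr3 and Oprm1, which the study tabled from these same arrays, so those members are not an independent choice. Coch stood at 7.63 in NV against 5.03 in RS and 5.42 in RE. Htr2c, a serotonin receptor, was at 11.88, 9.62 and 10.53. Timp2, an inhibitor of matrix metalloproteinases, was at 15.31, 13.14 and 13.95. In these 3 genes RE lay between RS and NV, though nearer to RS. Trhr, the receptor of thyrotropin-releasing hormone, fell by 1.31, and Resp18 fell by 1.32. Lypd1 and Nr2f2, an orphan nuclear receptor, were also lower, with differences of -1.27 and -1.26. Dcn, which encodes the matrix proteoglycan decorin, was at 13.96 in NV, with 12.83 in RS and 13.89 in RE. Etv1, at 11.91 in NV and 12.63 in RE, was among the 3 members above NV.

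Genes of the neighbouring thalamus and habenula mostly lay below NV. Of 24 listed genes 16 were above 6, of which 13 lay below NV and 3 above, at a median difference of -0.41. By the 2-fold threshold 6 were lower (37.5%, against 4.36%) and 3 higher (18.8%, against 3.94%). Among the 13 with both values above 6, 3 were lower and 3 higher. Beside Tcf7l2, Slc17a6, Irx2 and Pou4f1, Chrna3, a nicotinic subunit of the habenula, fell from 6.34 in NV to 5.18 in RE. Prkcd, a protein kinase C of thalamic neurons, was at 7.10 in NV against 9.08 in RS and 8.78 in RE. Ptpn3 and Plekhg1 rose by 1.16 each. The called genes of this list thus ran in both directions, whereas most members lay below NV. Ntng1, at 11.98 and 11.73, and Calb2, at 11.36 and 10.48, did not reach 2-fold. Of 37 transcription factors of the midbrain and hindbrain, 33 were measured and 13 were above 6. Of these, 10 were lower and 0 higher, and the median was -1.55, against -0.64 over all 33 measured. Only 4 had both values above 6, of which 3 were lower. Meis2, a homeobox factor, fell from 13.17 in NV to 11.70 in RE, and Ebf1 fell from 8.99 to 7.44. Otx2, at 6.83 and 4.38, and Ebf3, at 7.05 and 5.16, were among those at or below 6 in RE.

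Striatal genes were lower or little moved. Of 16 listed genes 13 were measured and 10 were above 6, and 4 were lower and 0 higher, at a median difference of -0.65. Beside Penk, Tac1, the precursor of substance P, stood at 11.96 in NV, with 9.62 in RS and 9.96 in RE. Drd1, the D1 dopamine receptor, was at 7.62, 6.17 and 6.15, and Rgs9, a regulator of striatal G protein signaling, was at 9.48, 8.46 and 8.16. Pde10a, a phosphodiesterase of medium spiny neurons, was at 12.18 in NV and 11.96 in RE. Of 17 neocortical genes above 6, 2 were higher and 2 lower. Bcl11b, also used by granule and CA1 neurons, rose by 1.27, Osr1 rose by 2.05, and Mef2c, an activity-regulated transcription factor, fell from 14.27 to 13.25. Tle4, at 12.62 in NV and 12.63 in RE, and Tbr1, at 11.94 and 12.06, were level between the pools.

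Choroid plexus and ependymal genes did not move as a group. Of 18 measured genes 10 were above 6, and 3 were higher (Ttr, Ak7 and Kl) and 2 lower (Otx2 and Sostdc1). All 3 that were higher lay below 6 in NV. Kl, which encodes the membrane protein klotho, was at 5.52 in NV against 7.65 in RS and 7.58 in RE. Sostdc1, a secreted inhibitor of BMP and Wnt signaling, was at 7.45, 7.58 and 6.42, so that it was low only in RE. Folr1, at 6.26 in NV and 6.20 in RE, and Slc4a5, at 7.26 and 6.86, did not reach 2-fold.

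**Figure D4:**
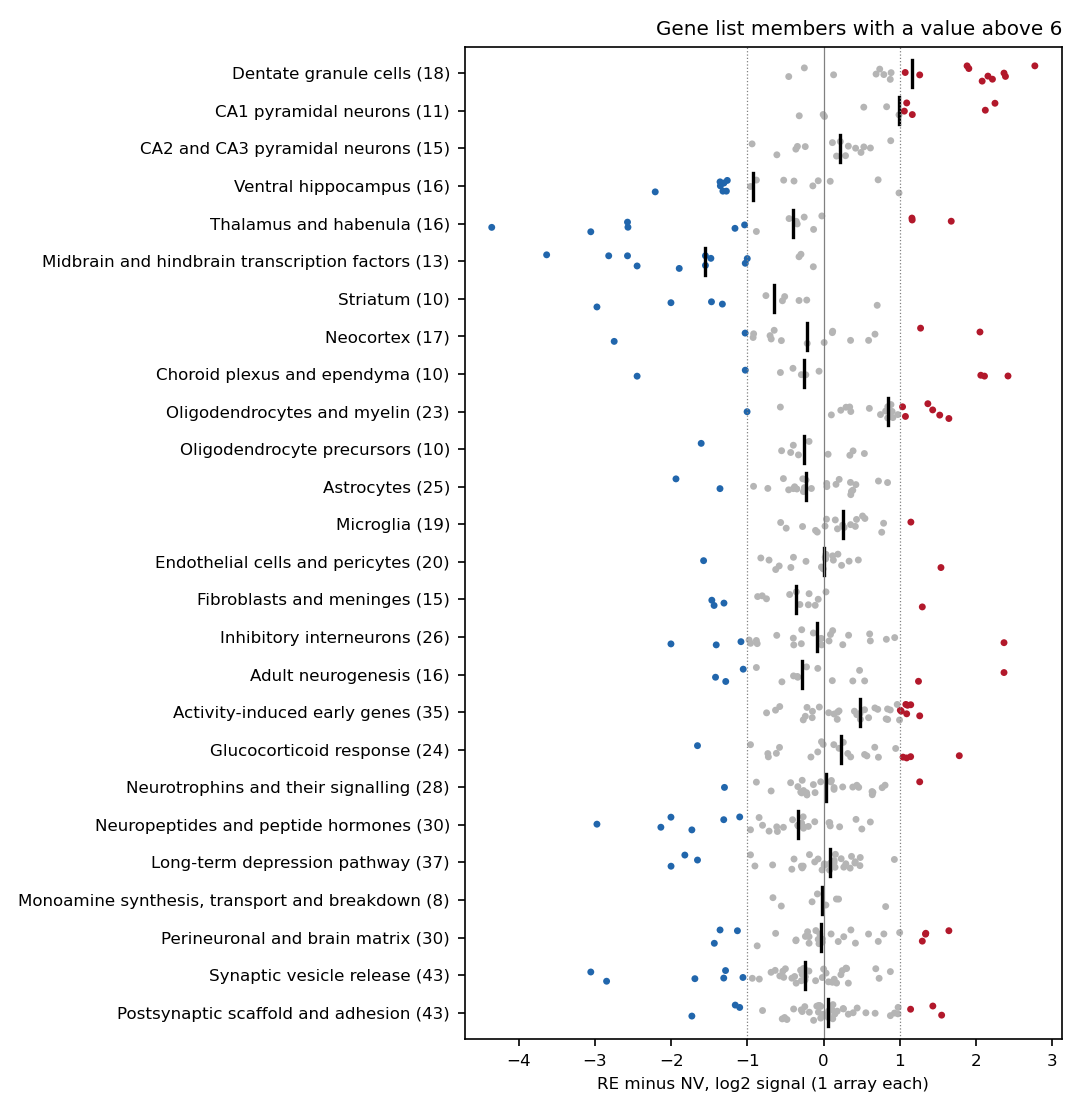
RE minus NV log2 difference (horizontal axis) of each member with a value above 6 in at least 1 of both pools, for 26 gene lists (number of members in brackets). Red points are higher and blue points lower by 2-fold or more, grey points did not reach 2-fold, black bars are medians, and the vertical scatter within a row has no meaning; the median was 1.17 for dentate granule cells and -1.55 for midbrain and hindbrain transcription factors.

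Among the cell types, myelin genes stood out. Of 26 genes listed for oligodendrocytes 23 were measured and all 23 were above 6. Of these, 6 were higher and 1 was lower, 21 of the 23 lay above NV, and the median was 0.84. Hapln2, a matrix link protein of the nodes of Ranvier, stood at 5.97 in NV, with 6.80 in RS and 7.61 in RE. Mag, a myelin adhesion protein, was at 6.66, 7.81 and 8.19, and Opalin was at 9.26, 10.32 and 10.70. In these 3 genes RE was the highest pool. Cldn11, the tight junction protein of myelin, rose from 9.47 to 10.84, and Mobp rose from 13.11 to 14.19. Mbp, the myelin basic protein, was at 16.20 in NV against 17.36 in RS and 17.04 in RE. The member that fell was Enpp6, from 8.07 to 7.07, a gene known for its use in newly forming oligodendrocytes. Precursor genes did not rise with the myelin genes. Of the 10 above 6, 0 were higher and 1, Lhfpl3, was lower, at 11.14 in NV and 9.54 in RE. Ptprz1, a receptor phosphatase of precursors, was at 15.13 and 14.58.

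In the other glial and vascular groups the counts of called genes were small, though the shares were not below those of all genes in every direction. Of 25 astrocyte genes, 0 were higher and 2 lower (8.0%, against 4.36%). Slc6a11, the GABA transporter GAT-3, stood at 14.09 in NV, with 11.96 in RS and 12.15 in RE, and Agt, the precursor of angiotensin, was at 11.67, 9.61 and 10.31. Slc1a2, the main glutamate transporter of astrocytes, was at 16.87 and 16.60, and Aldoc was at 17.98 and 17.06. Of 19 microglial genes above 6, 1 was higher (5.26%, against 3.94%), Aif1, at 5.73 in NV and 6.88 in RE. P2ry12, the purine receptor of resting microglia, was at 11.80 and 12.31, and Ctss was at 10.87 and 11.12. Among 20 genes of endothelial cells and pericytes, 1 was higher and 1 lower (5.0% each). Acta2, smooth muscle actin, was higher, at 4.78 and 6.32, and Kcnj8, a pericyte potassium channel, was lower, at 6.74 and 5.17. Of 15 genes of fibroblasts and meninges above 6, 1 was higher and 3 were lower (20.0%, against 4.36%), 13 lay below NV, and the median was -0.36. Bgn rose by 1.30, whereas Slc6a13, Mgp and Col1a2 had differences of -1.47, -1.44 and -1.31. Most of the called members of these vascular and meningeal lists had 1 value below 6.

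Inhibitory interneuron genes were mixed. Of 26 above 6, 1 was higher and 3 lower, and the median was -0.09. Gad2, which makes GABA from glutamate, stood at 12.93 in NV against 11.37 in RS and 11.53 in RE. Tac1 fell as given above, and Htr3a, the ionotropic serotonin receptor, fell by 1.08. Prox1, which is shared with granule cells, was the member that rose. Sst, which encodes somatostatin, was at 16.12 and 15.82, Cck at 14.26 and 14.87, and Cnr1, the cannabinoid receptor, at 13.84 and 13.81. Adult neurogenesis genes gave 2 higher and 3 lower of 16 above 6. Stmn1, a microtubule regulator, fell from 15.57 to 14.16, Dpysl5 from 8.76 to 7.48, and Dcx, the marker of migrating neuroblasts, from 10.38 to 9.32. Neurod2, a helix-loop-helix factor, was higher in RE by 1.25, as was Prox1 by 2.37.

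Genes induced early by neuronal activity tended upward. Of 47 listed genes 46 were measured and 35 were above 6, of which 7 were higher and 0 lower, at a median difference of 0.48. Egr3, an activity-induced zinc finger factor, was at 8.27 in NV, with 9.54 in RS and 9.37 in RE, but the mean of its probe sets differed by 0.47. Errfi1, a feedback inhibitor of the EGF receptor, was at 10.78, 11.55 and 11.87. Ptgs2, the inducible cyclooxygenase, was at 8.53, 10.11 and 9.61. Together with Bdnf, Dusp4, Junb and Plk2 these made up the 7. Dusp4, a phosphatase of MAP kinases, rose from 5.75 to 6.89, and Junb rose from 6.21 to 7.22. Homer1, a postsynaptic adaptor, was at 14.20 and 14.38, and Rheb, the activator of mTORC1, was at 14.41 and 14.55. Some other early genes are given here, chosen after their values were seen. Egr1 was at 11.40 in NV against 12.26 in RS and 11.34 in RE, Arc was at 7.61, 8.74 and 8.32, and Fos was below 6 in NV and RE, at 5.95 and 5.90. These 3 did not reach 2-fold. Npas4, which was below 6 in both and so outside the count, was at 4.75 and 5.81, a difference of 1.06.

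Promoters of early genes are known for a few short elements, among them the cyclic AMP response element, TGACGTCA. The promoters of the list, taken by RefSeq on GRCm38.p6 as 250 bases before and 50 after each start, were searched for this palindrome, which reads the same on both strands. Promoters were found for 28 of the 35 genes above 6, and 4 genes held the element, in 4 of 41 promoters, against 588 of all 32851 promoters (1.79%). The 4 are shown with 20 bases on each side, 5′ to 3′ on the strand of the gene, with the element in capitals. They are chr1:134079294-134079341 (minus strand) for Btg2, chr17:26508588-26508635 (minus strand) for Dusp1, chr4:150854999-150855046 (plus strand) for Errfi1 and chr13:110394962-110395009 (plus strand) for Plk2.
Btg2: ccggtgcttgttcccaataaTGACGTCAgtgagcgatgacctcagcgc
Dusp1: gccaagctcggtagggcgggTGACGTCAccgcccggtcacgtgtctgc
Errfi1: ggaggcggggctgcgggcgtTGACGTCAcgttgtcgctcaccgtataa
Plk2: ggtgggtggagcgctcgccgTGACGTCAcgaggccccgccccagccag
The element lay 166 bases before the start in Btg2, 143 in Dusp1, 51 in Errfi1 and 62 in Plk2. Plk2, a kinase of dendritic spines, was at 13.02 in NV, with 14.48 in RS and 14.04 in RE. Btg2, a transcriptional co-regulator, was at 6.61, 7.79 and 7.57, just short of 2-fold, and Dusp1, a MAP kinase phosphatase, was at 9.75, 10.11 and 10.29. The same promoters were searched for the CArG box, the element of serum response factor. It was found in 5 of the 41 promoters, which belong to 2 of the 28 genes, against 535 of all promoters (1.63%). The same Egr2 site lay in several overlapping promoters and was counted in each, so the count of promoters is not a count of separate sites. The genes were Dusp5, at 8.79 in NV and 9.22 in RE, and Egr2, at 7.28 and 7.06, and neither reached 2-fold. A match is a description of the letters and does not show binding.

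Glucocorticoid-response genes were higher more often than all genes, though most did not reach 2-fold. Of 31 listed genes, 24 were above 6. Of these, 4 were higher (16.7%, against 3.94%), 1 was lower (4.17%, against 4.36%) and 19 were neither. Of the 24, 14 lay above NV and 10 below, and the median difference was 0.23, against 0.01 over all genes. Nr3c2, the mineralocorticoid receptor, stood at 11.91 in NV against 13.83 in RS and 13.69 in RE. Hsd11b1, which regenerates active glucocorticoid inside cells, was at 9.43, 10.73 and 10.58, and Zbtb16, a zinc finger factor induced by glucocorticoids, was at 11.47, 12.53 and 12.52. These 3 genes and Errfi1, which is also counted among the early genes above, were the 4 that rose. Crhr1, the receptor of corticotropin-releasing hormone, fell from 7.99 to 6.33, with 7.02 in RS. The metallothioneins Mt1, at 17.10 in NV and 17.03 in RE, and Mt2, at 16.22 and 16.05, stayed close. Klf9 was at 12.58 in NV and 13.30 in RE, higher but short of 2-fold. The co-chaperone gene Fkbp5 and Nr3c1, the glucocorticoid receptor, were chosen here after their values were seen. Fkbp5 was at 12.60 in NV and 12.86 in RE. Nr3c1 was at 7.78 in NV, with 8.44 in RS and 8.31 in RE. Neurotrophin signaling gave 1 higher gene, Bdnf, and 1 lower gene, Sorcs1, at 8.42 and 7.12, of 28 above 6. Ntrk2, the BDNF receptor, was at 15.01 and 14.90, and Sort1, the sorting receptor sortilin, was at 14.75 and 15.39.

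Neuropeptide genes were lower where they moved. Of 57 listed genes 52 were measured and 30 were above 6, of which 6 were lower and 0 higher, at a median difference of -0.33. Beside Penk and Tac1, Trh, the precursor of thyrotropin-releasing hormone, was at 6.20 in NV, with 4.72 in RS and 4.06 in RE. Cbln2, a secreted synaptic organizer, was at 9.53, 7.86 and 7.80. Rln3, which encodes relaxin-3, fell from 6.58 to 5.27, and Cbln1 from 7.30 to 6.20. The most abundant of them moved little. Sst is given above, Scg2, a granin of dense-core vesicles, was at 14.65 and 14.39, and Cck was on the higher side.

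Receptors of peptides and peptide hormones fell more often than all genes. Of 70 genes 31 were above 6, and 8 were lower (25.8%, against 4.36%) and 2 higher (6.45%, against 3.94%). Tacr1, the substance P receptor, stood at 6.99 in NV against 5.18 in RS and 4.80 in RE. Cckbr, the brain cholecystokinin receptor, was at 10.28, 7.30 and 8.18. Npy4r was at 7.12, 6.03 and 5.03, and Galr1, a galanin receptor, was at 7.23, 5.18 and 5.35. Except for Cckbr these ended below 6 in RE. Crhr1, Agtr2, Oxtr, the oxytocin receptor, and Trhr were the other 4, and Oxtr fell from 9.07 to 7.75. The members that rose were Npy2r, a presynaptic receptor of neuropeptide Y, from 10.47 to 11.92, and Mchr1, from 5.18 to 6.50. Ednrb, the endothelin receptor of astrocytes, was at 12.94 and 12.13. Of 5 receptor genes that the study tabled for exercise EVs from these arrays, 3 were above 6. The study tabled them as higher in RE than in RS, whereas the comparison here is with NV. Trhr, lower against NV, was at 10.03 in NV, with 7.51 in RS and 8.72 in RE. Oprm1, the mu opioid receptor, was at 9.45, 7.14 and 8.49, and Tacr3 was at 7.45, 5.99 and 7.54. In these genes RE was thus above RS, the direction the study tabled. That list was chosen on these pools and is no independent evidence of its direction.

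Receptors for GABA and glycine gave 4 lower and 1 higher of 15 above 6, with a median of -0.45. Glycine receptor subunits led the falls, with Glra3 and Glra1, which was at 7.15 in NV and 4.42 in RE. Gabra3, a GABA-A subunit, stood at 13.23 in NV, with 11.40 in RS and 11.54 in RE, and Gabrq was at 6.43 and 4.67. Gabra4, the subunit of extrasynaptic receptors on granule cells, went the other way, at 11.39, 12.95 and 12.87. Gabra5, at 15.91 and 16.71, Gabbr2, with a difference of -0.35, and Glrb, at 15.43 and 15.04, had the highest signal and did not reach 2-fold. Glutamate receptors were 2 higher and 1 lower of 18. Grm2, a presynaptic receptor of mossy fibers, rose from 9.38 to 10.71 and Grin2a, an NMDA receptor subunit, from 13.75 to 14.80, whereas Grin3a fell from 10.23 to 9.23. The AMPA receptor subunits Gria1, at 16.89 and 17.12, Gria2, at 15.89 and 16.25, and Gria3, at 15.33 and 15.31, stayed close.

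Acetylcholine receptors gave 3 higher and 3 lower of 11 above 6 (27.3% each, against 3.94% higher and 4.36% lower). Of the 8 with both values above 6, 2 were higher and 1 was lower. Chrna5 was at 5.25 in NV against 7.98 in RS and 7.31 in RE. The muscarinic receptors Chrm1, at 10.82 and 11.90, and Chrm3, at 7.52 and 8.97, were higher, whereas Chrm2, an autoreceptor of cholinergic terminals, fell from 8.01 to 6.92. Chrna9 and Chrna3 fell to values below 6. Of 9 serotonin receptors, Htr1a, the inhibitory receptor on hippocampal neurons, rose from 9.03 to 10.14, and Htr2c and Htr3a fell. Of 8 receptors for dopamine, adrenaline and histamine, 3 were lower (37.5%, against 4.36%), namely Drd1, Drd3 and Hrh4. Only 4 of the 8 had both values above 6, of which 1 was lower. The other lower genes passed the level of 6 only through NV. Drd3 was at 7.24 in NV and 5.68 in RE. Monoamine synthesis, transport and breakdown gave 0 higher and 0 lower of 8 above 6, and Maoa, which degrades serotonin, was at 9.60 and 9.52.

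Potassium channels and their subunits gave 7 higher (11.7%) and 4 lower (6.67%) of 60 above 6. Inward rectifiers led in both directions. Kcnj6, a subunit of the channel opened by G proteins, stood at 9.47 in NV, with 11.75 in RS and 11.41 in RE, and its partner Kcnj9 was at 7.65, 8.68 and 9.11. Kcnj11, the pore of the ATP-sensitive channel, was at 5.38, 6.23 and 6.85. Kcnj16, a rectifier of glia, fell from 10.96 to 9.60, and Kcnj8 fell as given above. The auxiliary subunits Kcnab1, at 12.59 and 13.83, and Kcnab2, at 14.49 and 15.77, rose. Kcnt1 and Kcnk9, a leak channel, were lower by -1.37 and -1.21 on the log2 scale. Of 8 sodium channel genes, Scn8a, the channel of the axon initial segment, rose by 1.11 and the auxiliary Scn3b by 1.07, and Scn2a was at 15.13 and 15.01. Calcium channel subunits gave 1 higher, Cacng8, at 10.82 and 12.16, and 1 lower, Cacna2d2, at 7.84 and 6.76, of 20. Among TRP and HCN channels, Trpc6, a cation channel of granule cells, was at 7.36, 10.19 and 9.24. Chloride channels and anoctamins gave 3 lower and 0 higher of 15, of which Clcn5, an endosomal exchanger, fell from 8.37 to 7.21.

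Downstream of the receptors, the families differed. Of 24 G protein subunits, 0 were called in either direction, and Gnb1 was at 16.89 in NV and 16.58 in RE. Phospholipases gave 3 lower (20.0%, against 4.36%) and 0 higher of 15. Plcb4, which acts behind group I glutamate receptors in thalamus and cerebellum, stood at 10.70 in NV against 8.17 in RS and 8.70 in RE, whereas Plcb1, the main form of the hippocampus, was at 14.40, 14.81 and 14.81. Kinases of the C, G and CaM classes gave 3 lower and 1 higher of 20, also a larger share lower than 4.36%. Camk2d fell from 14.58 to 12.58 and Prkg2, a cGMP-dependent kinase, from 6.40 to 4.58, whereas Camk2b was at 17.08 and 17.52. Camk1 was at 10.21 in NV and 8.90 in RE, and Prkcd was the member that rose. Of 29 phosphodiesterases and cyclases, Adcy1, the calmodulin-stimulated adenylyl cyclase, rose from 10.81 to 12.16, and Pde1c and Gucy2c had differences of -1.22 and -1.28. Within the long-term depression pathway, 37 of 46 measured genes were above 6, 3 were lower (Plcb4, Prkg2 and Crhr1) and 0 were higher, with a median of 0.08. Of the long-term depression genes that the study tabled from these arrays for restraint, 4 were listed here. These same 3 were the ones above 6, and they are no independent evidence of direction.

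Genes of the presynaptic release machinery gave 6 lower and 0 higher of 43 above 6, with a median of -0.25. Beside Slc17a6 and Unc13c, Syt9 fell from 8.57 in NV to 6.88 in RE, Syt10 from 12.11 to 10.83, and Doc2a from 6.28 to 4.97. Vamp1, a vesicle SNARE of subcortical neurons, fell from 14.10 to 13.04. The core of the machinery was close between the pools, with the calcium sensor Syt1 at 18.18 and 17.94, Snap25 at 18.09 and 17.85, and Syp at 18.03 and 17.76. Slc17a7, the glutamate transporter of hippocampal terminals, chosen here after its values were seen, was at 15.99 and 15.57. Postsynaptic scaffold and adhesion genes gave 3 higher and 3 lower of 43. Il1rap, a synaptic adhesion protein and receptor subunit, was at 10.43, 12.20 and 11.86, and Slitrk3, an organizer of inhibitory synapses, was at 11.11, 12.14 and 12.26. Cbln2, Cbln1 and Lrrtm3, which bind or act with neurexins, were lower, the last of them at 12.15 and 10.99. Cnksr2, a scaffold of the postsynaptic density, was at 16.93 and 17.18.

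Eph receptors, which guide axons and shape spines, were among the families that rose most. Of 18 ephrins and Eph receptors above 6, 4 were higher (22.2%, against 3.94%) and 1 was lower. Epha7 stood at 14.84 in NV, with 17.07 in RS and 16.39 in RE. Epha4, the receptor of the mature hippocampus, was at 13.07, 15.09 and 14.70, and Epha6 was at 12.94, 14.80 and 14.43. The receptors were thus high in both restrained pools at a high signal. Ephb4 rose from 5.52 to 6.92. The ligand Efna5 went the opposite way, at 9.09, 6.77 and 7.27. Semaphorins, plexins and neuropilins gave 4 higher and 3 lower of 25. Sema5a, Sema7a, Plxna4 and Sema3e rose, the last from 11.93 to 13.15. Plxnd1, the receptor of Sema3e, fell from 8.01 to 6.17, Sema3a fell by 1.41 and Sema6a by 1.15. Of 10 slits, netrins and receptors, Robo1, a slit receptor, rose from 8.37 to 9.81, and the netrin receptor gene Unc5d fell from 10.98 to 8.89.

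Cadherins and protocadherins gave 3 higher and 7 lower of 48. Pcdh7 stood at 13.11 in NV against 11.52 in RS and 11.61 in RE. Cdh18 was at 11.92, 10.81 and 10.48, and Cdh13, a cadherin held by a lipid anchor, was at 11.47, 9.62 and 10.04. Pcdh20 and Pcdh17 rose by 1.36 and 1.14. Cdh8, at 13.29 and 13.89, and Cdh2, or N-cadherin, at 13.44 and 12.80, did not reach 2-fold. Collagens gave 5 lower and 0 higher of 17 above 6, with a median of -0.60, but 4 of the 5 ended below 6 in RE. The exception was Col28a1, at 8.23 and 7.11. Matrix genes of the brain gave 4 higher and 3 lower of 30. Sparc, a calcium-binding matrix protein, fell from 15.95 to 14.52, and Tnc, tenascin-C, fell from 7.55 to 6.42. The membrane-bound metalloproteinases Mmp16, at 11.24 and 12.58, and Mmp17, at 8.41 and 9.74, rose, as did Hapln2 and Bgn. Sparcl1, at 17.96 and 17.33, and Spock2, at 15.29 and 14.93, had the highest signal beside Sparc and did not reach 2-fold. Of 24 genes of the TGF-beta and BMP family, Tgfb2, Acvr1, Gdf10 and Grem1 were higher and Acvr2a and Bmp3 lower, with Tgfb2 at 10.67, 11.79 and 12.01. Fgf13, a sodium channel partner, rose from 10.13 to 11.73, and Wnts and frizzleds gave 2 lower, Fzd1 and Wnt9b, of 16.

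Homeobox factors that pattern the brainstem and thalamus fell more often than all genes. In the family of LIM, POU, Otx, Irx, Pax, Pitx, Meis and Pbx genes, 25 of 52 were above 6, and 9 were lower (36.0%, against 4.36%) and 0 higher. Only 16 had both values above 6, of which 4 were lower. The other lower genes passed the level of 6 only through NV. The median difference was -0.30 over the 25 and -0.32 over all 52 measured. Irx2, Pou4f1, Otx2, Pbx3 and Lmx1b had the largest differences, and Lmx1b, a factor of serotonergic neurons, was at 8.30 in NV and 6.75 in RE. Lhx2, a factor of the cortical plate and hippocampus, was at 10.48 and 11.05. Of 7 factors of the Zic, Gata, Tfap2 and Ebf families, 5 were lower (71.4%, against 4.36%) and 0 higher. Only 2 of the 7 had both values above 6, of which 1 was lower. The median of this group was -1.55 over the 7 and -0.22 over all 18 measured. Zic1 was at 8.55, 7.69 and 8.53, level between NV and RE. Nuclear receptors gave 2 higher, Nr3c2 and Rara, and 2 lower, Nr2f2 and Rxrg, of 26. Rara, a retinoic acid receptor, was at 6.52, 7.62 and 8.06. Nr4a3 was at 12.85 and 13.84, a difference just under 2-fold, and Thra, the thyroid hormone receptor, was at 14.88 and 14.52.

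Histone genes gave 5 higher and 0 lower of 38 above 6, with a median of 0.28. H2ac22 was at 9.18 in NV, with 10.36 in RS and 10.56 in RE, and H2ac10 was at 8.05, 9.51 and 9.23. H2ac12 and H2bc8 were the others beside H2bc11. These genes have near-identical copies, so which copy a probe set reported is uncertain. Zinc finger genes named Zfp gave 8 higher and 1 lower of 301, which is below the background in both directions, with Zfp536, a repressor of neuronal differentiation, at 7.58, 9.27 and 9.33. Zfp971 had one of the highest signals of the family, at 17.05 and 16.98.

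Genes of basic cell functions were steady. Of 54 heat shock proteins and DnaJ partners, 0 were called, and Hsp90aa1 was at 17.31 in NV and 17.36 in RE. Cytochrome c oxidase with complexes II and III gave 0 called of 28, with Cox7c at 17.63 and 17.14. Of 45 genes of complex I, 1 was higher, the assembly factor Ndufaf3, at 7.55 and 8.68. Of 61 cytosolic ribosomal protein genes, 1 was higher, Rpl27, and 1 was lower, Rps27l. The proteasome gave 1 lower of 42, Psme2b, at 7.71 and 6.21. Mitochondrial ribosomal proteins gave 3 higher and 0 lower of 71, led by Mrps21, at 8.19 and 9.31. Solute carriers, the largest family, gave 6 higher (2.78%) and 7 lower (3.24%) of 216. Slc24a2, a calcium exchanger of neurons, rose from 12.98 to 14.41, whereas Slc25a18, a mitochondrial glutamate carrier of astrocytes, fell from 10.09 to 8.51. ABC transporters gave 3 higher and 1 lower of 31, and Abca1, the exporter of cholesterol to apolipoproteins, was at 8.61, 10.04 and 9.74.

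Immune families had few members above 6, so their counts of called genes were small. Interferon-induced genes gave 0 higher and 1 lower of 23 (4.35%, against 4.36%), and MHC genes and complement genes gave 0 called of 7 each. Chemokines and their receptors gave 1 in each direction of 18 (5.56% each, against 3.94% higher and 4.36% lower). Interleukins and receptors gave 1 higher, Il1rap (4.17%), and 2 lower, Il13ra1 and Il10 (8.33%), of 24. Il13ra1 was at 8.35 in NV against 7.57 in RS and 7.11 in RE. Serpins and other protease inhibitors gave 5 lower (23.8%, against 4.36%) and 1 higher (4.76%, against 3.94%) of 21. Of the 14 with both values above 6, 1 was lower and 1 higher. Serpina3n, an acute-phase gene of astrocytes, was the one that rose, at 8.95, 10.86 and 10.21. Among glutathione enzymes, Gstm7 rose from 7.59 to 9.50, and Gpx3, the extracellular peroxidase, had a difference of -1.73.

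Among families with at least 15 members above 6, the largest shares lower beside the homeobox genes were those of families that the hippocampus is not known to use. Defensins gave 9 lower and 1 higher of 19 above 6 (47.4% lower), and chemosensory receptors gave 44 lower and 1 higher of 130 above 6 (33.8% lower). Their members lay near 6 in NV, and over all 1453 chemosensory receptor genes the median difference was -0.23. The low end of the RE array lay below that of NV, as given above, and its part in the falls of families whose members lie near 6 was not tested.

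**Figure D5:**
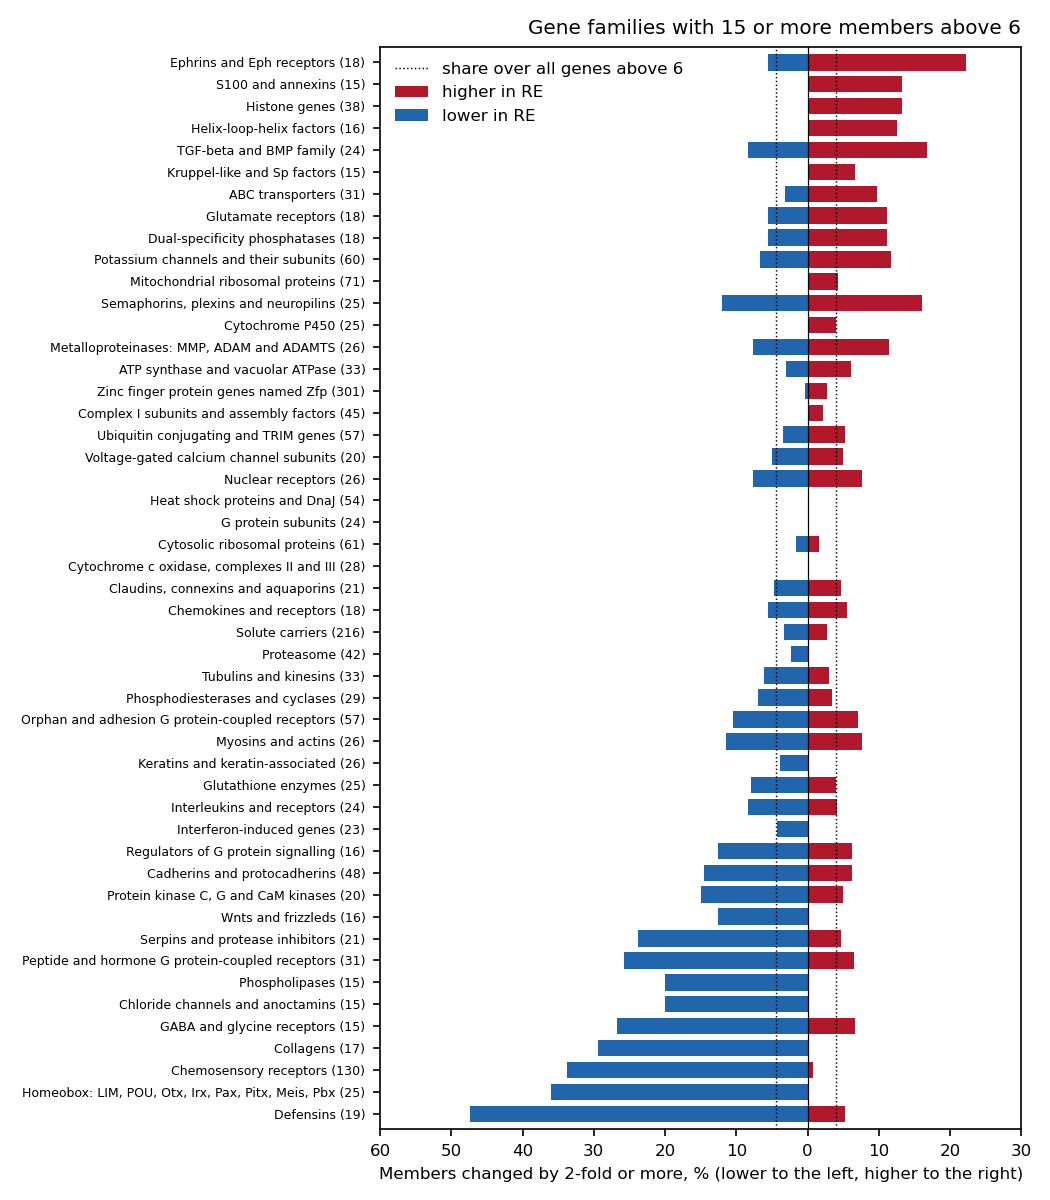
Percent of members lower (blue, to the left) or higher (red, to the right) in RE than in NV by 2-fold or more, for each gene family with at least 15 members above 6 (number in brackets). The dotted lines mark the shares over all 11788 genes, 4.36% lower and 3.94% higher; ephrins and Eph receptors reached 22.2% higher, homeobox genes 36.0% lower and defensins 47.4% lower.

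In some genes RE stood apart from both other pools by 2-fold or more. The examples were chosen after their values were seen, as the 8 with the largest distance from the nearer pool in each direction. Osr1, a zinc finger factor, was at 5.49 in NV, with 6.10 in RS and 7.54 in RE. Sytl5, a partner of Rab27 in vesicle traffic, was at 6.04, 6.72 and 7.87, and Gpr135, an orphan receptor, was at 6.28, 6.72 and 7.95. Slc38a11, an amino acid transporter gene, was at 6.17, 6.26 and 7.49. Scin, Dpy19l4, Lbp and Trim13 were the others above both pools. On the lower side, Atg16l2, a relative of the autophagy gene Atg16l1, was at 10.62, 10.02 and 8.49, the only one of the 8 with all 3 values above 8. Tuft1 was at 6.70, 5.73 and 4.48, and Mycbpap was at 7.06, 6.87 and 5.26. Rps27l, Odam, Znrd1as, Saxo2 and Iqck were the others. Most of these 16 genes had at least 1 value at or near 6, and with 1 array a pool their distance has no replicate check.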

How the data were processed

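Per the labels and the study's methods, pooled hippocampal RNA was hybridized to 1 Affymetrix whole-transcript array per group. The deposited values are log2 signals made by the authors with Affymetrix software, and 2 names with no version, RMA and Affymetrix Power Tools, stand in the submitters' notes on processing. The medians of the NV, RS and RE columns were 6.64, 6.62 and 6.55. Values above 16 occur for 174, 211 and 169 probe sets, and neither the step behind them nor any rescaling before the log is stated there. Array signal has no read depth, and the number of arrays limits the precision.

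Symbols came from the platform annotation, and an update through gene identifiers changed 0 of them. Probe sets numbered 19571 with 1 symbol, 0 with several and 2634 with none here, and 55 genes had more than 1. The only comparison was the difference of 2 log2 values, with a level of 6 and a 2-fold threshold. Groups were 29 gene lists and 66 families defined by symbol patterns, trimmed of non-members after a first look. The comparison, members and lists were chosen with earlier results of these data known. Genes were named by rule: the 15 largest rises and falls without predicted models, small RNAs and chemosensory receptors, then up to 5 called members in each direction and the 3 of highest signal per group, and the tissue markers. Others are marked as chosen after their values were seen. Promoters were taken from RefSeq, GRCm38.p6. Alternatives were centring, quantile normalization, removal of the lowess trend (span 0.3), the mean of probe sets, other filters, a 1.5-fold threshold, all rows, and replacing RE by RS or by the mean of both. A floor at 6 was added after seeing the data. Scripts were tested on simulated data and ran under python 3.11.15 with matplotlib 3.10.9, statsmodels 0.14.6, pandas 2.3.3 and numpy 2.4.6. Other experiments of the study are not analysed here.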

Additional observations from a re-analysis of the deposited data

How the results depend on the processing

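The 465 rises and 514 falls moved by less than 1.5 times under centring on the median (560 and 437), quantile normalization (497 and 480), removal of the lowess trend (467 and 477), the mean of probe sets (463 and 512), all rows of the table (512 and 626) and a filter on the mean of both values (419 and 359). The counts that moved by more were those with both values above 6 (254 falls beside 362 rises), with no filter (998 falls beside 559 rises), with values below 6 set to 6 (306 falls beside 393 rises), a setting added after seeing the data, and at 1.5-fold (1598 rises and 1490 falls). By construction, the filters keep or drop genes of low signal, the floor shrinks differences that run below 6, and the last setting lowers the threshold. Rises made up 47.5% of the called genes, against 58.8% with both values above 6 and 35.9% with no filter. With RS in place of RE, which shares the NV array, the counts were 582 and 485, and with the mean of RS and RE they were 466 and 454.

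Of the 504 named genes, 278 were called. Centring took 13 of the named genes out of the 2-fold calls and brought 2 in, quantile normalization 12 and 4, the lowess trend 17 and 2, and the floor at 6 took out 66. The mean of probe sets took out 1, Egr3 (0.47). Sostdc1 turned to 0.13 with RS in place of RE, and so did the median of Choroid plexus and ependyma, to 0.0639. The median of Sox factors turned to 0.0774 under quantile normalization. The causes were not tested. No paired analysis was possible because each group had 1 array and no replicate numbers, and for the same reason no replicate could be left out.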
